A study of Mus musculus with 8 samples.

Results

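The Polycomb genes described here encode 32 subunits of Polycomb repressive complexes 1 and 2 (PRC1 and PRC2), all of them present among the 19950 genes of the deposited table. They were taken by gene symbol from a fixed membership, 11 for PRC2 and 21 for PRC1, and the rule itself uses no measured value, although the membership was chosen with earlier results of these data known. Bulk RNA-seq was done on whole mouse embryos at embryonic day 6.5, the onset of gastrulation, in 4 libraries labelled WT and 4 labelled Axin1;Axin2 mutant. Axin1 and Axin2 are scaffolds on which β-catenin is phosphorylated and so sent for breakdown, and their loss is known to raise WNT/β-catenin signalling. The study compared gene expression between these genotypes; the labels used here name neither the alleles nor the strain or litters. Replicates carry the numbers 1, 2, 4 and 5 in each genotype, and the labels describe an embryo per library without saying whether embryos came from separate litters. Each p-value below reflects only how much these 8 libraries vary.

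PRC2 places methyl groups on lysine 27 of histone H3 (the H3K27 mark) through its EZH enzymes, held by EED, SUZ12 and the histone-binding RBBP proteins, and it comes in forms that carry either PHF1, MTF2 or PHF19 (PRC2.1) or JARID2 and AEBP2 (PRC2.2). PRC1 is built on a RING1 or RNF2 ubiquitin ligase with a PCGF partner and adds ubiquitin to histone H2A. Canonical PRC1 also has a CBX protein, which binds the methyl mark, and a PHC protein, which polymerises; variant PRC1 has RYBP or YAF2 in place of CBX. In the mouse embryo both complexes are known for holding Hox and other developmental genes silent until they are needed.

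Of the 32 Polycomb genes 10 changed between genotypes, 9 of them in PRC1, with 3 of 4 CBX genes and 3 of 4 PHC and SCM genes. Of 21 PRC1 genes, 4 were higher and 5 lower in mutants (limma on log2 values, adjusted p under 0.05), against 0 higher and 1 lower of 11 PRC2 genes. Phc1 fell the most, to 3.81-fold below WT, while its paralog Phc2 rose 1.45-fold, and Cbx7 fell 2.03-fold while Cbx8 rose 1.81-fold. The catalytic genes Ezh1, Ezh2, Ring1 and Rnf2 did not pass the threshold. Whether the 2 complexes differ was not tested. Over all 15600 tested genes 15.6% passed, 8.03% higher and 7.55% lower, against 10 of the 32 Polycomb genes.

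Promoter sequences are shown for Phc1 and Phc2 and for Cbx7 and Cbx8, the paralog pairs whose balance moved most between genotypes. Each run covers 250 bases before to 50 bases after a RefSeq gene start in build GRCm38.p6 and is written 5′ to 3′ on the gene's strand, with capitals for CTTTGA or its reverse complement TCAAAG, the core letters that TCF/LEF factors of the WNT pathway are known to bind. Phc1 lies on the minus strand at chr6:122340178-122340477, Phc2 on the plus strand at chr4:128654452-128654751, Cbx7 on the minus strand at chr15:79932597-79932896 and Cbx8 on the minus strand at chr11:119040864-119041163. For Phc2, which has 3 listed starts, the window at the start of the annotated gene is shown. Cbx7 has 1 listed start, and its window lies inside the annotated gene (chr15:79915807-79971119), away from the 5′ end at 79971119. Phc1 also has 1 listed start, and its whole window lies inside the annotated gene (chr6:122317731-122340561), short of the 5′ end at 122340561.
Phc1: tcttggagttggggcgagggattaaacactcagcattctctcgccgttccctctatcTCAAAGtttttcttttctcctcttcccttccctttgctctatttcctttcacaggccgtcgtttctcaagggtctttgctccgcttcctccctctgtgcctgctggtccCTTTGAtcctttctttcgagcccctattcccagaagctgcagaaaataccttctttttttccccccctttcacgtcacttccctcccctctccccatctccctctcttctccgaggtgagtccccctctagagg
Phc2: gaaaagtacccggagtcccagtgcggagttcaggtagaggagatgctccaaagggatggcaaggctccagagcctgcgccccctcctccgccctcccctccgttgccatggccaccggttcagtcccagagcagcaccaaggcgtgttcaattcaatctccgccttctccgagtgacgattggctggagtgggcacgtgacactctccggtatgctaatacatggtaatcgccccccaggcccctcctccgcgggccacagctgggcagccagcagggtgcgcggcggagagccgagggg
Cbx7: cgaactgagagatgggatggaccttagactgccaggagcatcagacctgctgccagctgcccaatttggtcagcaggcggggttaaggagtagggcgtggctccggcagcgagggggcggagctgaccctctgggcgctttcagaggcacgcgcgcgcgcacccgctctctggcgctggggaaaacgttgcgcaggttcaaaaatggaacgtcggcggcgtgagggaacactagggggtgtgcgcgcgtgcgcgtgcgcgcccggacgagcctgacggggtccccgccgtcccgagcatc
Cbx8: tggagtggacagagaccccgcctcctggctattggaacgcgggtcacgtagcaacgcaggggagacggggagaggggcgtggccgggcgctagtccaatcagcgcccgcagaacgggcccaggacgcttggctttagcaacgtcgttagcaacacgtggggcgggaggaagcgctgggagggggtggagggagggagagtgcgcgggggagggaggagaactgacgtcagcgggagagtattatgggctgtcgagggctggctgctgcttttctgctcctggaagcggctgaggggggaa

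Of the 4 promoters shown, Phc1 alone held the letters, at 2 places, with the longer form CTTTGAT at 1 of them. Searched on both strands, CTTTGA occurred in 16.003% of all 32851 promoters and in 4 of the 41 promoters matched to 28 of the 32 Polycomb genes, those of Aebp2, Pcgf5, Phc1 and Suz12. CTTTGAT, which contains the shorter motif, occurred in 3.73% of all promoters and in 1 of the 41. These matches describe letters and not binding. The Polycomb promoters had a median of 23 CpG dinucleotides per 300 bases, against 7 over all promoters. These sets were not matched for expression. In the windows shown Phc1 had 9, Phc2 19, Cbx8 24 and Cbx7 33, and the other Phc2 starts had 2 and 45.

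Depth was even, with 26615732 to 36778164 reads assigned to genes per library. The values are scaled counts, that is, read counts divided by the authors' DESeq size factor for each library, and 1 read was worth 0.866 to 1.18 scaled counts. As a check of the labels, Axin1 (chr17:26138688-26195811) fell from 4565 ± 1081 to 1996 ± 204 scaled counts (SD, n = 4 each). The check covers Axin1 only, not Axin2, and an RNA level does not identify the allele. Sex-linked and tissue markers set libraries apart. Y-linked transcripts summed to at least 5243 in 6 libraries but to 14.2 in WT replicate 2 and 0 in WT replicate 5. The summed level of 12 maternal decidua markers was 411 to 2120 in WT and 5567 to 52491 in mutants, highest in mutant replicates 4 and 5, with 9 of 11 tested genes higher. Among its members Lum was at 0 in all WT libraries and in mutant replicate 1, and Prl8a2 and Dcn overlapped between genotypes, at 21.7 to 1129 and 10.7 to 40.8 in WT and 134.7 to 6283 and 8.29 to 538 in mutants. In mutant replicates 1 and 2 Prl8a2 (135 and 479) and Dcn (20.5 and 8.29) did not exceed WT. Most of the sum of 18725 in mutant replicate 1 came from Col1a1 (7837) and Des (7413). Whether the list measures maternal tissue in these 2 libraries was not tested. The summed level of 8 epiblast markers, Pou5f1, Otx2, Fgf5 and others, was 41169 to 46345 in WT and 6700 to 13339 in mutants, with 8 of 8 lower, and blood and endothelium markers went from 1142 to 2071 up to 9142 to 11657. Sums overlapped for maternal blood (249 to 4435 in WT, 3222 to 8167 in mutants) and visceral endoderm (126189 to 152182 and 105961 to 158580). Primitive streak, extraembryonic ectoderm, ectoplacental cone and parietal endoderm sums overlapped too. An overlapping sum does not mean that its members were unchanged. Of 8 primitive streak genes 2 were higher and 2 lower (limma, adjusted p under 0.05), with log2 fold changes from -1.92 to 3.48. Of 8 extraembryonic ectoderm genes 1 was higher, as was 1 of 4 tested ectoplacental cone genes. The 5 parietal endoderm genes had log2 fold changes from -2.73 to -0.38, and 0 passed. The part of all these markers in the Polycomb results was not tested, other than by the fits named below. In bulk RNA, fewer cells of a type and less RNA per cell cannot be told apart.

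Compared per length, in RPKM (recovered reads divided by exon length and by the library's total reads), the Polycomb genes spanned means of 0.483 to 369 in WT embryos. Rbbp7 and Rbbp4, which encode histone chaperone subunits shared with other chromatin complexes, stood highest at 369 ± 11.4 and 96.1 ± 2.09. Rnf2 (44.1 ± 1.84), Phc1 (40.2 ± 5.41), Eed (38.4 ± 2.35), Yaf2 (32.3 ± 0.593) and Suz12 (31.5 ± 1.65) followed as means, and the range of Phc1 overlapped those of Rnf2 and Eed. The lowest were Phf19 (1.54 ± 0.13), Phf1 (0.847 ± 0.159) and Phc3 (0.483 ± 0.0526). In mutants Phc1 fell from rank 4 to rank 16 of the 32, at 10.9 ± 2.69, and Phc2 went from rank 14 to rank 9, at 25.4 ± 2.61. The first 3 places and the last 3 were held by the same genes in both genotypes.

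**Figure D1:**
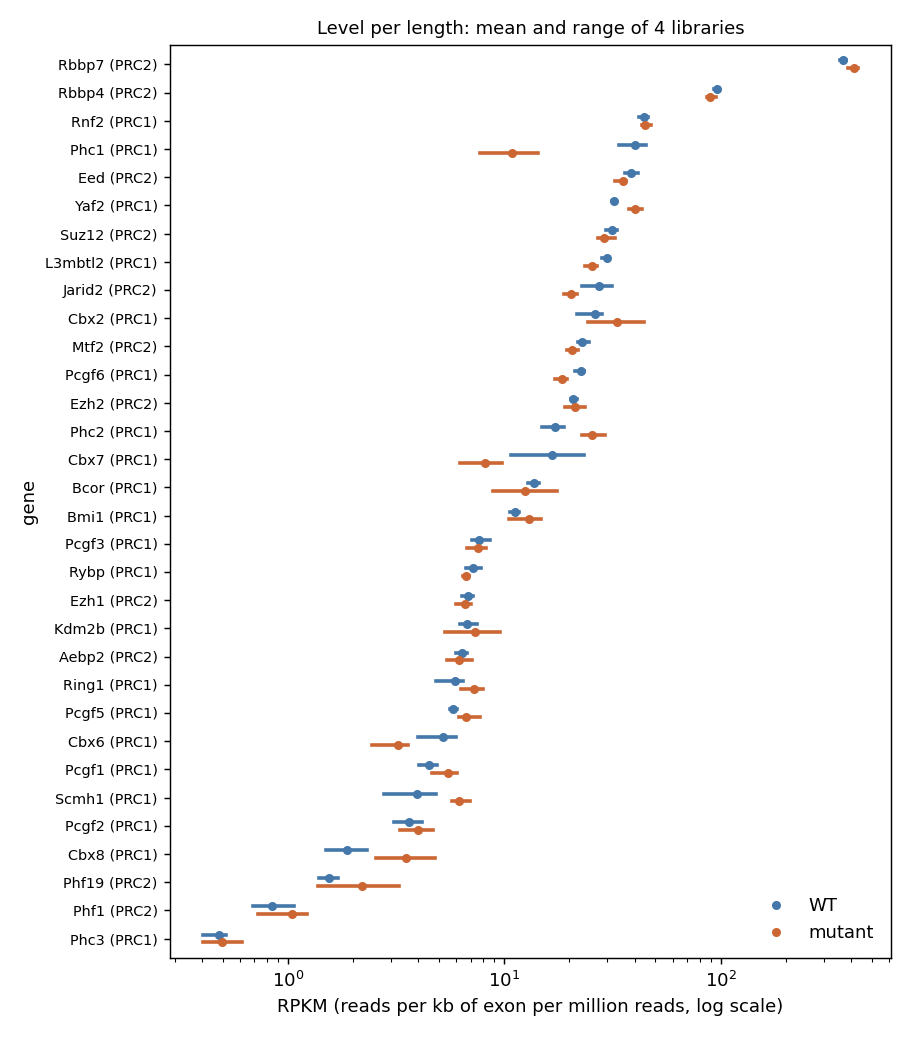
Levels of the 32 Polycomb genes in RPKM (log axis), ordered by the WT mean; points are means and lines the range of 4 libraries, blue for WT and orange for mutant. Phc1 shows the widest gap between genotypes, 40.2 in WT and 10.9 in mutants, while Rbbp7 stays highest and Phc3 lowest.

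In the PRC2 core none of 6 genes passed the threshold with limma (2 at an unadjusted p under 0.05), and their log2 fold changes (mutant over WT, on log2 of the scaled count + 1) ran from -0.14 to 0.14. Ezh2, the main methyltransferase of dividing cells, had 4406, 4569, 4319 and 4346 scaled counts in WT replicates 1, 2, 4 and 5 and 4940.4, 4448, 3879 and 4362 in mutant replicates 1, 2, 4 and 5, the order used throughout. The genotypes overlapped, and the log2 difference of -0.01 had a 95% interval of -0.18 to 0.17. Ezh1, its paralog of lower activity, ranged from 1494 to 1706 in WT and from 1393 to 1636 in mutants. Per length, Ezh2 made up 75.3% ± 1.31 of the summed EZH level in WT and 76.3% ± 1.30 in mutants (SD, n = 4 each).

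Eed and Suz12, the scaffold and stabilising subunits, each had a log2 difference of -0.14. Eed counts were 4606, 4605, 4385 and 5018 in WT and 3891, 4381, 4246 and 4332 in mutants. The genotypes came next to each other without overlapping, and the adjusted p was 0.184 (limma). Suz12 ranged from 4592 to 5234 in WT and from 4077 to 5051 in mutants, with overlap. Rbbp4 went from 26608 ± 549 to 24255 ± 1186 (adjusted p 0.107, limma) with overlap. Its X-linked paralog Rbbp7 had 32734, 34779, 33766 and 34614 in WT and 35323, 39480.0, 37696 and 36944 in mutants (log2 difference 0.14, adjusted p 0.103, limma). Every mutant value of Rbbp7 was above every WT value. The ratio of Rbbp7 to Rbbp4 counts did not overlap between genotypes, at a mean log2 ratio of 0.35 in WT, with a highest value of 0.37, and 0.62 in mutants, with a lowest value of 0.45.

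Among PRC2 accessory genes, Jarid2, which encodes the PRC2.2 subunit that helps place the complex on chromatin, was the 1 of 5 that changed. Jarid2 (chr13:44729474-44921643) had 9678, 7029, 9128 and 7872 scaled counts in WT and 5745, 6663, 5846 and 6286 in mutants. All mutants lay below all WT libraries, with WT replicate 2 the nearest to them. The log2 fold change was -0.45 ± 0.10 (SE), with an adjusted p of 0.0186 (limma). Aebp2, the other PRC2.2 gene, ranged from 1865 to 2092 in WT and from 1694 to 2181 in mutants.

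The 3 Polycomb-like genes of PRC2.1, whose proteins bind CpG-rich DNA, were led by Mtf2. Mtf2 counts were 3980.5, 3941, 4163 and 4438 in WT and 3887, 3574, 3684 and 3442 in mutants. They did not overlap, but the difference of -0.18 on the log2 scale did not pass the threshold (adjusted p 0.100, limma); it did with each library centred on its median. Phf19 was spread widely among mutants, from 218 to 517, with 517 in mutant replicate 2, against 223 to 272 in WT. Phf1 ranged from 77.1 to 117 in WT and from 80.1 to 129.9 in mutants, and it overlaps Cuta on the opposite strand by 1370 bases, whose reads libraries without strand cannot separate. Summed per length, the 5 accessory genes came to 59.1 ± 3.69 in WT and 50.3 ± 0.904 in mutants, without overlap.

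Over the 11 PRC2 genes the median log2 fold change was -0.08 and its median size 0.14, against 0.06 and 0.26 over the 21 PRC1 genes and -0.0018 and 0.23 over all tested genes. Values of the genotypes did not overlap for 4 PRC2 and 9 PRC1 genes, and for 22.4% of all tested genes.

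**Figure D2:**
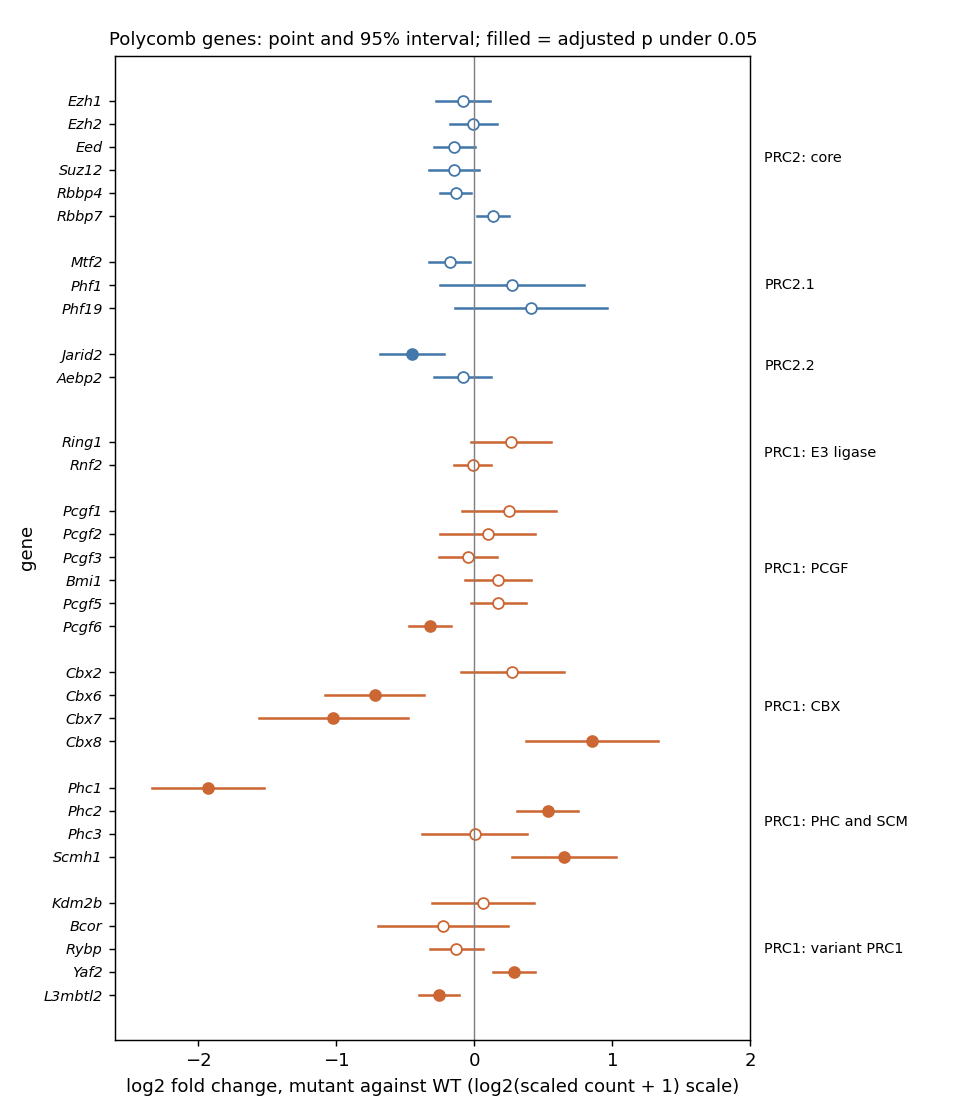
Log2 fold change of each Polycomb gene, mutant over WT, on the log2(scaled count + 1) scale, grouped by role; points are limma estimates, lines 95% intervals, blue PRC2 and orange PRC1, filled where the adjusted p is under 0.05. Filled points gather in the CBX, PHC and SCM groups, from -1.93 for Phc1 to 0.85 for Cbx8, and the 6 core PRC2 genes lie between -0.14 and 0.14.

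In PRC1 the ubiquitin ligase genes were not called. Rnf2, the main ligase of the early embryo, had 5764 ± 223 scaled counts in WT and 5715 ± 307 in mutants, with a log2 difference of -0.01 and a 95% interval of -0.15 to 0.12. Ring1 ranged from 497 to 662 in WT and from 639 to 810.1 in mutants (log2 difference 0.27, adjusted p 0.206, limma). Per length Rnf2 made up 88.2% ± 1.56 of the pair in WT and 86.1% ± 1.16 in mutants, and these shares overlapped.

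The PCGF genes set the type of PRC1, and 1 of 6 changed. Pcgf6 (chr19:47033617-47050906), whose protein joins L3MBTL2 in the variant complex PRC1.6 that silences germ cell genes, had 3377, 3697, 3649 and 3625 scaled counts in WT and 2682, 2985, 2780.1 and 3056 in mutants. The genotypes were clearly apart and each was tight, with coefficients of variation of 3.98% and 6.06%. The log2 fold change was -0.32 ± 0.07 (SE; adjusted p 0.0121, limma). Pcgf2 and Bmi1, the PCGF partners of canonical PRC1, had log2 differences of 0.10 and 0.17 with overlapping values. Pcgf1, Pcgf3 and Pcgf5, of variant complexes, had 0.25, -0.04 and 0.17, also with overlap. Per length Pcgf6 made up 40.7% ± 0.932 of the PCGF sum in WT and 33.4% ± 0.892 in mutants, while the sum itself was 55.3 ± 1.94 and 55.1 ± 2.37.

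Among the CBX genes, which encode the reader of the methyl mark, 2 fell, 1 rose and Cbx2 did not pass. Cbx7 (chr15:79915807-79971119), the main CBX gene of mouse embryonic stem cells, had 2205, 3859, 2844 and 4767 scaled counts in WT and 1267, 1999, 1862 and 1443 in mutants. The WT values were scattered, with the upper pair in replicates 2 and 5, the libraries without Y-linked transcripts, and the lowest close to the highest mutant. The log2 fold change was -1.02 ± 0.24 (SE; adjusted p 0.0202, limma), and among the 6 libraries that hold Y-linked transcripts it was -0.63 with an adjusted p of 0.131. Cbx7 overlaps the opposite-strand gene Apobec3 by 100 bases, and Apobec3 itself went from 1202 to 1408 in WT down to 474 to 632 in mutants.

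Cbx8 (chr11:119036305-119040969), a CBX gene known to rise when mouse embryonic stem cells differentiate, moved the other way. Its scaled counts were 174, 270.0, 203 and 228 in WT and 292, 359, 532 and 419 in mutants. The groups did not overlap, although mutant replicate 1 lay just above WT replicate 2, and the highest value was in mutant replicate 4. The log2 fold change was 0.85 ± 0.21 (SE; adjusted p 0.0262, limma) and 0.58 without mutant replicates 4 and 5 (adjusted p 0.160).

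Cbx6 (chr15:79823896-79834688) had 2005, 1334, 1884 and 1796 in WT and 809, 1203, 1140.1 and 1098 in mutants. Its values were apart, with WT replicate 2 near the mutants, and its log2 fold change was -0.72 ± 0.16 (SE; adjusted p 0.0162, limma). It overlaps Npcd on the same strand by 563 bases, and how the authors counted reads there is not known. Cbx2, the most abundant CBX gene per length in every library, ranged from 2916 to 3808 in WT and from 3284 to 5887 in mutants (log2 difference 0.28, adjusted p 0.312, limma). Its highest value was in mutant replicate 1.

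The summed CBX level did not separate the genotypes, at 50.1 ± 6.15 in WT and 48.0 ± 6.48 in mutants on the per-length scale. Within it Cbx7 made up 32.8% ± 8.32 in WT and 17.4% ± 5.27 in mutants, and the ranges overlapped slightly. Cbx8 went from 3.78% ± 0.797 to 7.44% ± 2.05 and Cbx2 from 52.9% ± 6.71 to 68.2% ± 8.47, both with overlapping libraries. The log2 ratio of Cbx8 to Cbx7 counts had a mean of -3.92 in WT, with a highest value of -3.66, and -2.05 in mutants, with a lowest value of -2.48, so that it was separated. Cbx2 and Cbx8 are neighbours on chromosome 11, 5.04 kb apart on opposite strands, and Cbx6 and Cbx7 lie 81.1 kb apart on chromosome 15. Both genes of the chromosome 15 pair fell, while on chromosome 11 Cbx8 rose and Cbx2 did not pass.

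The PHC genes encode the polymerising subunit that links PRC1 complexes. Phc1 (chr6:122317731-122340561), known for high expression in mouse embryonic stem cells, had 7626, 5694, 7429 and 6229 scaled counts in WT and 2358, 1759.8, 1243 and 1838 in mutants. Every mutant value was under the lowest WT value by a wide margin, and mutant replicate 4 was the lowest. The log2 fold change was -1.93 ± 0.18 (SE), with an adjusted p of 0.000243 (limma). The summed epiblast markers, 41169 to 46345 in WT and 6700 to 13339 in mutants, were also lower in every mutant, and their part in the fall of Phc1 was not tested. Phc2 (chr4:128654702-128752881) had 3777, 3321, 4269 and 4045 in WT and 6404, 5111, 5289 and 5465 in mutants. All mutants were above all WT libraries, for a log2 fold change of 0.53 ± 0.10 (SE; adjusted p 0.00689, limma). Phc3 was low throughout, from 224 to 287 in WT and from 217 to 334 in mutants.

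The order of Phc1 and Phc2 was inverted in all 4 mutant libraries. Per length Phc1 made up 69.3% ± 2.30 of the PHC level in WT and 29.4% ± 3.99 in mutants, and Phc2 29.8% ± 2.31 and 69.2% ± 4.03. The rise of Phc2 was smaller than the fall of Phc1 on this scale, and the PHC sum went from 57.9 ± 6.59 in WT, lowest 49.5, to 36.8 ± 4.97 in mutants, highest 43.8. The log2 ratio of Phc2 to Phc1 counts had a mean of -0.80 ± 0.16 in WT and 1.66 ± 0.29 in mutants (SD, n = 4 each). Among the 12 paralog or partner pairs compared, this ratio moved the most, and 8 pairs overlapped between genotypes.

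**Figure D3:**
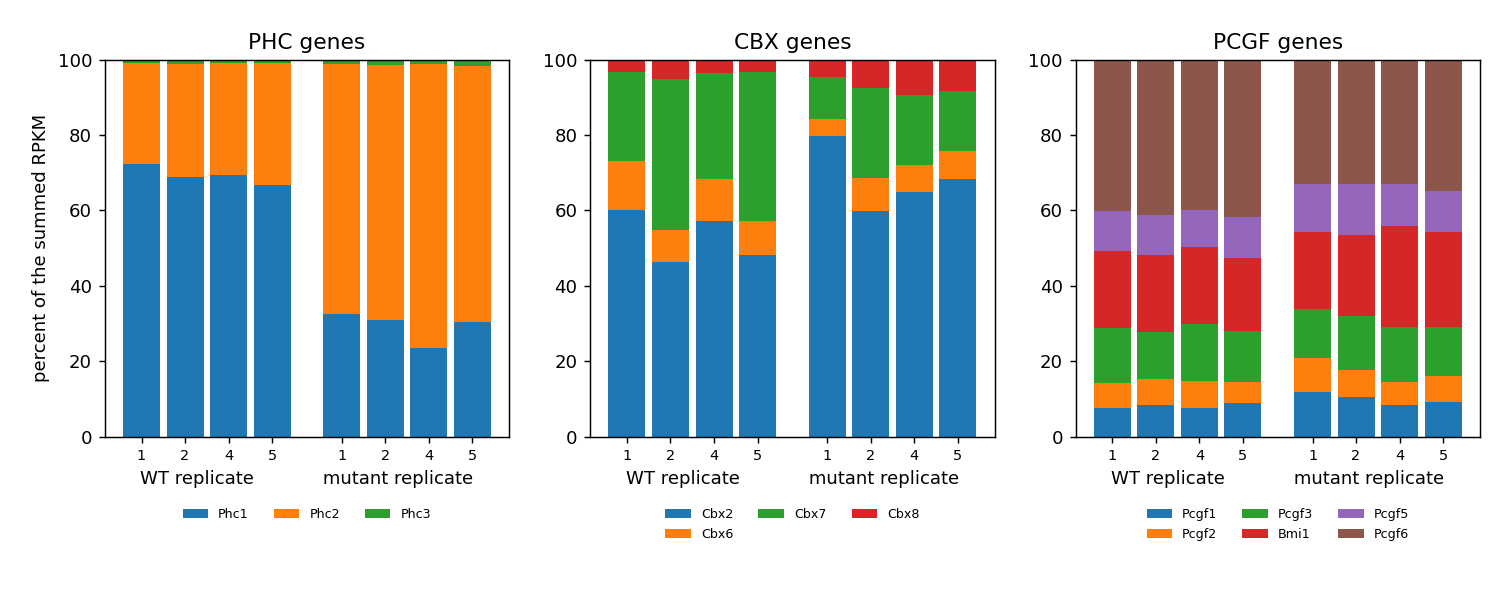
Share of each gene in the summed level of its family, in percent of summed RPKM, in each library, for the PHC, CBX and PCGF genes. Phc1 takes 66.8% to 72.3% of the PHC bar in WT and 23.6% to 32.6% in mutants; within the CBX bars Cbx7 takes less in mutants, and the PCGF bars differ mainly in Pcgf6.

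Scmh1 (chr4:120405281-120530186), the sex comb on midleg homologue that pairs with PHC proteins, had 1099, 680.1, 1188 and 912 in WT and 1672, 1544, 1344 and 1411 in mutants. It was higher in every mutant, with mutant replicate 4 nearest to WT, and its log2 fold change was 0.65 ± 0.17 (SE; adjusted p 0.0303, limma). Among the 6 libraries that hold Y-linked transcripts the difference was 0.38 with an adjusted p of 0.118.

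Of 5 variant PRC1 genes, 1 rose and 1 fell. Yaf2 (chr15:93284278-93336935), the paralog of Rybp whose product stimulates the ligase, had 1875, 1898, 1951 and 1941 in WT and 2449.7, 2224, 2461 and 2231 in mutants. WT embryos were nearly equal, with a coefficient of variation of 1.87%, and all mutants were above them, by a log2 fold change of 0.29 ± 0.07 (SE; adjusted p 0.0187, limma). Rybp, which has an annotated pseudogene, Rybp-ps, that can share its reads, had 1072 ± 85.3 and 977 ± 33.5. The log2 ratio of Yaf2 to Rybp counts had a mean of 0.84 in WT and 1.26 in mutants without overlap, and Yaf2 was the larger of the pair in all 8 libraries.

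L3mbtl2 (chr15:81663889-81688315), of PRC1.6, had 5611, 5338, 5799.5 and 5686 in WT and 4836, 4742, 4264 and 4953 in mutants. The groups were apart, with a log2 fold change of -0.26 ± 0.06 (SE; adjusted p 0.0262, limma). It overlaps Chadl on the opposite strand, which was at 46.2 to 68.7 in WT and 38.9 to 52.7 in mutants, far under L3mbtl2.

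Kdm2b, whose zinc finger brings a variant PRC1 to unmethylated CpG islands, had 2326 ± 204 in WT and 2479 ± 610.4 in mutants, from 1757 in mutant replicate 4 to 3243 in mutant replicate 1. Bcor, its X-linked partner, had 3902, 3946, 3778 and 3506 in WT and 2499, 3936, 2328 and 4726 in mutants. The mutants fell on either side of WT, with replicates 1 and 4 below and replicate 5 above, and their coefficient of variation was 34.2% against 5.23% in WT. No difference of genotype was called for either gene (adjusted p 0.843 for Kdm2b and 0.518 for Bcor, limma).

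**Figure D4:**
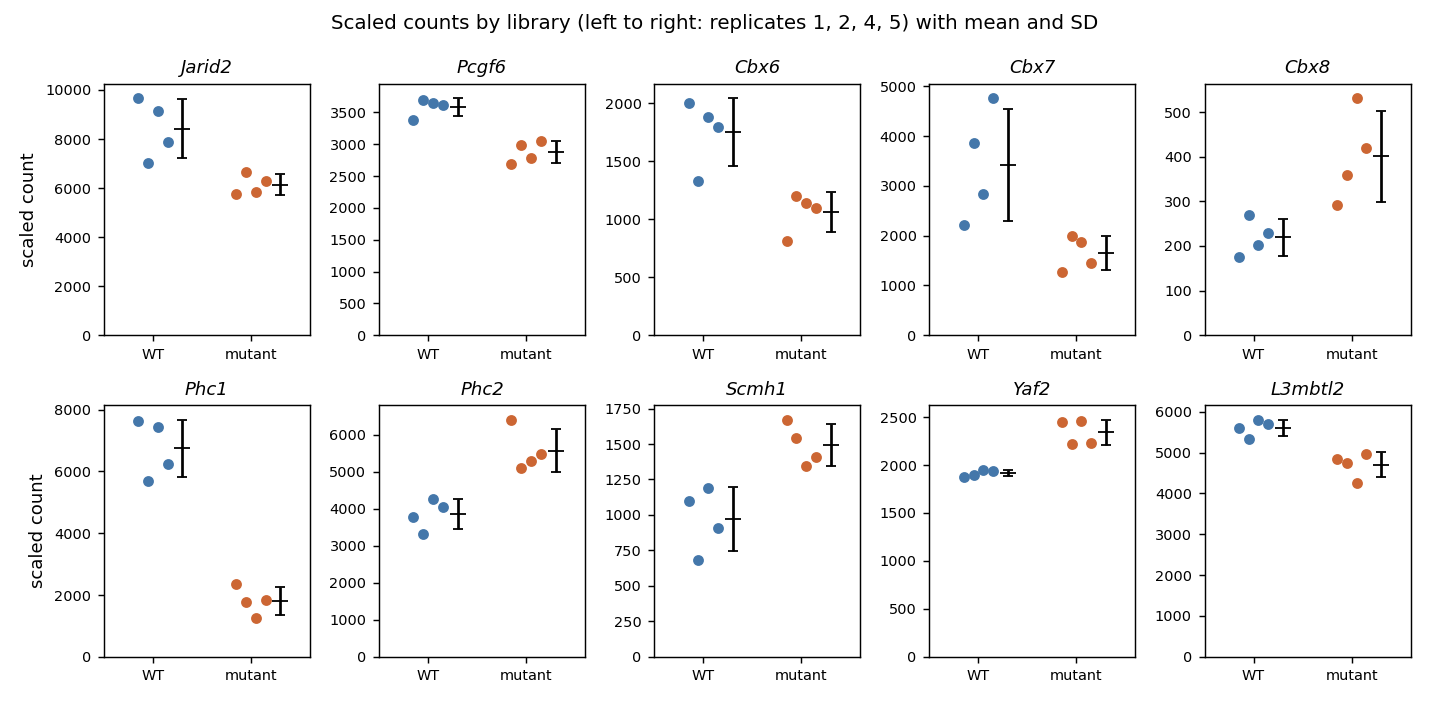
Scaled counts in each library for the 10 Polycomb genes with an adjusted p under 0.05, WT in blue and mutant in orange, replicates 1, 2, 4 and 5 from left to right, with the mean and SD in black; each axis starts at 0. No gene has a mutant value inside the WT range; Phc1 shows the widest gap, with 5694 to 7626 in WT and 1243 to 2358 in mutants, and Cbx7 has the largest WT scatter relative to its mean, a coefficient of variation of 33.0%.

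The 10 calls rest on the libraries to different degrees. All 10 kept their direction in each of 19 other fits, and all 10 passed with edgeR and with DESeq2 on the recovered reads. Phc1 passed in 18 of the 19, Phc2 and Pcgf6 in 17, Jarid2 in 15, Cbx6 and Cbx7 in 14, Yaf2 in 13, L3mbtl2 in 12 and Cbx8 and Scmh1 in 11. Without mutant replicates 4 and 5, the highest in decidua markers, Phc1, Phc2 and Pcgf6 passed, where 9.17% of all genes did. Among the 6 libraries that hold Y-linked transcripts Phc1, Cbx6 and Jarid2 passed, where 6.54% of all genes did. With the decidua marker level as a covariate none passed, where 2.08% of all genes did, and Phc1 had a log2 fold change of -1.47 (adjusted p 0.0602, limma). That covariate, the mean log2 level of the decidua list, does not overlap between the genotypes, so that it and genotype cannot be told apart, although single members such as Prl8a2 and Dcn do overlap.

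Several calls were lost when 1 library was left out, in fits that also called fewer of all genes. Over all genes 2431 passed with all 8 libraries, and 1655, 1902, 1600 and 1675 without WT replicate 1, 2, 4 or 5. Without mutant replicate 1, 2, 4 or 5 they were 2231, 2376, 1947 and 1818. The log2 fold change in these fits ran from 0.71 to 0.99 for Cbx8 and from 0.49 to 0.76 for Scmh1. Cbx8 lost its call when WT replicate 1, 4 or 5 or mutant replicate 4 or 5 was left out, and Scmh1 when WT replicate 5 or mutant replicate 1, 2 or 5 was. L3mbtl2 lost it without WT replicate 1, 4 or 5, Cbx6 without WT replicate 1 or 4, Cbx7 without WT replicate 2 or mutant replicate 5, Jarid2 without WT replicate 4 and Yaf2 without WT replicate 1. Adjusted p-values in those fits were at most 0.0778.

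Other genes of the pathway were taken as lists by function. Of 26 further Polycomb subunits 23 were tested, with 1 higher and 2 lower (13.0% called, against 15.6% of all tested genes), and the median log2 fold change was -0.10. Values of the genotypes did not overlap for 8 of the 23 (34.8%, against 22.4% of all tested genes). The summed scaled counts of the list were 64602 to 69711 in WT and 58175 to 62814 in mutants. Scml2, an X-linked SCM gene, rose at low counts, from 34.0 ± 4.62 to 85.005 ± 36.5 (adjusted p 0.0394, limma), and Hdac1, a deacetylase shared with other complexes, fell by 0.32 on the log2 scale (adjusted p 0.0456, limma). Scml2 passed in 8 and Hdac1 in 9 of the 19 other fits. Tfdp1, the E2F partner found in PRC1.6, fell by 0.30 on the log2 scale (adjusted p 0.00353, limma) and passed in 18.

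Genes for enzymes that remove the histone marks of PRC1 and PRC2, with their subunits, were described in the same way. Of 12 genes for H2A deubiquitinase subunits and H3K27 demethylases, 0 rose and 1 fell with limma (8.33% called, against 15.6% of all tested genes). The gene was Kdm6a, an X-linked demethylase that removes the PRC2 mark. Kdm6a had 2698, 3399.6, 2519.9 and 3194 in WT and 1901, 2125, 1574 and 1680.0 in mutants. The upper pair in WT were the libraries without Y-linked transcripts, and among the 6 with them the log2 fold change was -0.53 (adjusted p 0.0674) against -0.70 ± 0.13 over all 8 (adjusted p 0.00617, limma). At an unadjusted p under 0.05 the list had 4 genes; edgeR called 0 higher and 2 lower, and DESeq2 1 higher and 3 lower. Over all 15600 genes 4607 were under that p, edgeR called 2430 and DESeq2 3438. The summed scaled counts of the list were 37758 to 42108 in WT and 30364 to 36609 in mutants, while 1 of the 12 genes had no overlap between genotypes (8.33%, against 22.4% of all tested genes).

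Of 17 Trithorax genes, subunits of H3K4 methyltransferases that maintain expression, 16 were tested, and 0 rose and 1 fell with limma (6.25% called, against 15.6% of all tested genes), with 2 at an unadjusted p under 0.05. Psip1, which tethers the MLL methyltransferases to chromatin, had 13171, 12876, 12915 and 12704 in WT and 8893, 7688, 7883 and 8424 in mutants. The groups were far apart beside their spread, with a log2 fold change of -0.65 ± 0.06 (SE, adjusted p 0.000186, limma), and Psip1 passed in all 19 other fits. The summed scaled counts of the list, Psip1 among them, were 50339 to 53564 in WT and 40745 to 47272 in mutants. Of the 16 tested genes 1 had no overlap between genotypes (6.25%, against 22.4% of all tested genes).

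The Hox genes, the best known Polycomb targets, were higher where called. Of 39 listed genes 25 had enough counts to be tested, 22 rose and 0 fell, against the 8.03% and 7.55% of all tested genes. Genes near 0 in WT entered the test through the mutants, so this count describes those genes only. Summed over 4 libraries, Hoxb6 had 1 read in WT and 2215 in mutants, Hoxd9 13 and 3474, Hoxb2 7 and 873, and Hoxd8 10 and 1016. Hoxa10 and Hoxa11 are also expressed by maternal decidua and belong to the decidua list, so that the covariate is built in part from Hox genes and its fit is no check of them. Protein, histone marks and binding were not measured.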

How the data were processed

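Per the labels' protocols, total RNA of whole embryos was extracted with the miRNeasy kit, amplified over 12 cycles with the SMART-Seq v4 kit, which does not keep strand, and made into KAPA libraries. The submitters' processing notes name cutadapt 1.6, STAR 2.5.0a, HTSeq 0.5.3, DESeq and mm10; their settings and the annotation used for counting are not stated there. The authors deposited 1 table of a scaled signal, gene counts divided by a size factor per library. All values (100%) were whole multiples of 1 read within 0.01, so reads were recovered; they are PCR copies without molecular identifiers. Replicate pairs had a chi-square per degree of freedom of 17.3 to 75.3, so none was treated as a duplicate.

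The genotypes were compared with limma 3.58.1 (R 4.3.3, trended prior, two-sided, Benjamini-Hochberg adjustment at 0.05) on log2(scaled count + 1), which understates changes of low genes, over 15600 genes with at least 10 scaled counts in at least 4 libraries. On the recovered reads edgeR 4.0.16 (quasi-likelihood, TMM) called 2430 genes and DESeq2 1.42.0 3438, against 2431 with limma. Per-length levels divide reads by the exon union of GENCODE M21 (GRCm38, the assembly of mm10; 19878 gene IDs matched); that release need not be the one used for counting. Promoters come from RefSeq. Scripts were tested on simulated data.

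The Polycomb genes and companion lists were chosen with earlier results of these data known, and 1 further subunit is not reported here. Named beside them are Axin1 and, from each companion list, up to 4 genes past the threshold with the smallest p; overlapping genes were named after their values were seen. Other fits changed the pseudocount to 0.5 or 5, dropped the filter or set a mean minimum of 50, centred libraries on their medians, used the count tests, blocked on replicate number, omitted single libraries, or used the library subsets and the covariate named in the report.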

Additional observations from a re-analysis of the deposited data

Results flagged for a closer look

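In 8 of 84 groups of 4 libraries checked, 1 library stood apart from the other 3 by more than Dixon's 95% limit, where chance gives about 4.2. Among Polycomb genes, Rbbp4 was lowest in WT replicate 1, at 25787 scaled counts against 26839 to 26945 in the others, and Cbx2 was lowest in WT replicate 2, at 2916 against 3681 to 3808. Of the further subunits, Scml2 was highest in WT replicate 1, at 40.8 against 30.8 to 32.2, and Hdac1 was highest in WT replicate 5, at 8355 against 6584 to 6663. Axin1 was lowest in WT replicate 4, at 2963 against 4884 to 5274, still above every mutant. Hoxd9 was lowest in mutant replicate 2, at 757 against 917 to 933. Hoxb6 in WT replicate 5 (1.18, the others at 0) and Hoxb2 in WT replicate 4 (3.46, the others 0.928 to 1.18) differ by a few reads.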

How the results depend on the processing

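All 10 Polycomb calls kept their direction in 19 alternatives, and pseudocounts, filters, edgeR and DESeq2 kept all 10. Median centring, which moved the median of all genes to -0.09 on the log2 scale and the share of calls that were higher from 51.5% to 39.3%, lost Yaf2 and gained Mtf2. It gave 2 lower PRC2 genes, 0 higher and 5 lower further subunits, and 3 lower H2A deubiquitinase and H3K27 demethylase genes. Same-numbered libraries did not deviate together (correlations -0.04, -0.17, -0.19 and -0.05), and differently numbered pairs ran from -0.22 to 0.24. These values cannot decide whether equal numbers mark a litter or a preparation batch, which the labels used here do not state. With a replicate block 5 calls remained (0 in PRC2, 2 higher and 3 lower in PRC1). In that fit 0 further subunits were higher, and Phc1 kept its log2 fold change of -1.93.

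Leaving out single libraries gave 853 to 1295 higher and 734 to 1144 lower genes, 0 to 1 lower PRC2 genes, 2 to 4 higher and 3 to 5 lower PRC1 genes, 0 to 1 higher and 1 to 3 lower further subunits, 0 to 1 higher and 1 to 3 lower H2A deubiquitinase and H3K27 demethylase genes and 21 to 22 higher Hox genes. Without mutant replicates 4 and 5 there were 707 higher and 723 lower genes, 0 lower in PRC2, 1 higher and 2 lower in PRC1, 0 higher and 1 lower further subunits and 0 lower H2A deubiquitinase and H3K27 demethylase genes. In the 6 libraries with Y-linked transcripts there were 528 higher and 493 lower genes, 0 higher and 2 lower in PRC1, and 0 higher and 1 lower further subunits. The decidua covariate left 171 higher and 154 lower genes, 10 Hox genes (Hoxa10 and Hoxa11 are part of the covariate) and 0 in every other list but the Trithorax one. The H2A deubiquitinase and H3K27 demethylase list had 2 lower genes with edgeR, and 1 higher and 3 lower with DESeq2. A mean of at least 50, which tests fewer genes, gave 14 Hox genes.

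Among genes that were not called, these log2 values changed sign. With the decidua covariate they were 0.12 for Ezh1, 0.16 for Ezh2, 0.067 for Suz12, -0.37 for Phf1, 0.10 for Rnf2, 0.019 for Pcgf3 and -0.075 for Bmi1. Without mutant replicates 4 and 5 they were 0.023 for Ezh1, 0.088 for Ezh2, 0.036 for Rnf2 and -0.010 for Phc3. In the Y-linked libraries they were 0.0094 for Ezh2, 0.025 for Rnf2, -0.069 for Phc3 and -0.039 for Kdm2b. With median centring the Phc3 log2 fold change was -0.083 and the Kdm2b log2 fold change -0.023. Leaving out single libraries gave -0.063 to 0.054 for Ezh2, -0.048 to 0.012 for Rnf2, -0.086 to 0.016 for Pcgf3, -0.11 to 0.10 for Phc3 and -0.078 to 0.22 for Kdm2b, and DESeq2 gave an Ezh2 log2 fold change of 4.85e-05. The cause was not tested. The 95% intervals give the precision that 4 libraries a genotype allow.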
